A study of Mus musculus with 6 samples.

Results

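The cytosolic ribosomal protein genes were followed in hearts under pressure overload, with and without miR-27b. Members were the genes whose mouse symbol begins with Rpl or Rps and a digit, together with Rpsa, Rplp0, Rplp1 and Rplp2. The Rps6k kinases (10 genes) and symbols ending in -ps (3 genes) were left out. This gave 87 of the 17570 genes in the files. Of these, 77 encode the core proteins found in ribosomes of all tissues, with 43 in the large subunit, 3 in its stalk and 31 in the small subunit. Another 6 are paralogs of core genes (Rpl3l, Rpl7l1, Rpl22l1, Rpl36al, Rpl39l and Rps27l). The other 4 symbols that match the rule are Rpl32l, Rpl37rt, Rps19bp1 and Rps23rg1. Of these, Rpl37rt and Rpl32l are near-identical copies of the core genes Rpl37 and Rpl32 (99.7% and 96.0% identical). Fau and Rack1, which also encode ribosomal proteins, fall outside the symbols of the rule.

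The study made miR-27b knockout mice on a C57BL/6 background with TALEN nucleases, and the homozygous animals lack a short stretch of mature miR-27b-3p in every cell. Young adult wild-type and miR-27b-null mice both underwent transverse aortic constriction (TAC), a surgical narrowing of the aorta that loads the left ventricle. Heart RNA was sequenced 8 weeks later from 3 hearts per group (WT/TAC and KO/TAC). No sham-operated libraries were analysed here, so the comparison is between genotypes under load. The study describes the tissue as whole heart, and p-values measure the spread between these hearts. The extraction text of the labels also speaks of granulosa cells, a cell type of the ovary, which does not match the labelled tissue. Mir27b itself was not analysed here, so the labels were not checked on the targeted gene.

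The cytosolic ribosome translates nearly all mRNAs of the cell, and each of its proteins is normally present once per particle, or in a few copies for the stalk proteins. Their mRNAs begin with a run of pyrimidines, the 5′ terminal oligopyrimidine (TOP) tract, through which mTORC1 controls their translation as a group. A growing heart muscle cell makes more ribosomes, and striated muscle replaces part of the core protein Rpl3 with the paralog Rpl3l.

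The start region is shown for 5 core genes, since the TOP tract is the sequence feature that sets the family apart. Each window holds 30 bases of GRCm38.p6 around the RefSeq start site, of which 10 lie before it, and capitals mark CTTTC or CTTCC, a short stand-in for the pyrimidine tract. Rpl35, Rpl28 and Rps10 show the tract at the start. Rpl13a and Rpl12 are shown because their values separated the groups. The values of Rpl28 and Rpl3l also separated the groups, as did those of members not shown here, such as Rplp1. A link between start sequence and group values was not tested. In Rpl13a and Rpl12, the RefSeq start falls on a G and the marked motif lies further into the transcript. The 2 annotated starts of the muscle paralog Rpl3l follow for comparison and hold neither motif.
Rpl35 (chr2:39005112-39005141, minus strand): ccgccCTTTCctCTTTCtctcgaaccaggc
Rpl28 (chr7:4792955-4792984, plus strand): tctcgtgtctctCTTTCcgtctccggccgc
Rps10 (chr17:27635225-27635254, minus strand): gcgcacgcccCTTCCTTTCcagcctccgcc
Rpl13a (chr7:45128726-45128755, minus strand): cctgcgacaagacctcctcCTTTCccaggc
Rpl12 (chr2:32961702-32961731, plus strand): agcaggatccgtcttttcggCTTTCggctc
Rpl3l, first start (chr17:24727816-24727845, plus strand): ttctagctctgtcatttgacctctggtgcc
Rpl3l, second start (chr17:24732675-24732704, plus strand): caacagctacagtgccccaaatgtcctgaa

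Over the window from 10 bases before to 50 bases after the start, 1 of the motifs stood on the sense strand of 64.9% of the 57 core genes with an entry. The share was 20.7% of all 27025 genes in the table and 22.1% of the tested genes with an entry. On the antisense strand the shares were 24.6% of core genes and 23.8% of all genes. The higher share in core genes was thus seen on the sense strand. Among mitochondrial ribosomal protein genes, which encode the separate ribosome of the mitochondrion, 29.0% held it on the sense strand. A match describes these letters only and is no measure of translation.

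The microRNA removed in KO/TAC pairs with target mRNAs through bases 2 to 8, in capitals in its mature sequence below.
miR-27b-3p (chr13:63300760-63300780, plus strand, GRCm38.p6): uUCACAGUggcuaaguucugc
The matching site in an mRNA reads ACTGTGA. It stood in the longest 3′ UTR of 2 of 85 members searched, or 2.35%, against 17.3% of the 12322 tested genes searched. Members had short 3′ UTRs, with a median of 173 bases against 1188 bases over the tested genes. Both sites are shown because no other searched member held one.
Rpl21 (chromosome 5): gcaccaggACTGTGAagtgtttt
Rpl27a (chromosome 7): gtaagcttACTGTGAtggacagg
Neither gene was called between genotypes by the rule described below. The log2 fold change of Rpl21, a large subunit protein, was 0.04 (standard error 0.21, limma adjusted p = 0.962). That of Rpl27a, also of the large subunit, was 0.01 (standard error 0.15, adjusted p = 0.989). Without WT/TAC replicate 1, which stood apart as described below, they were 0.22 and 0.12, and neither was called. Near-identical copies of Rpl21, which had higher levels than Rpl21 itself, are described further below.

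Expression was given as FPKM, a fragment count scaled by transcript length and by library depth, which allows levels of different genes to be set side by side. Summed over all genes it ranged from 519562 to 553716 between libraries, and the spacing of the lowest values gave a weak estimate of depth, in units of 1000000 fragments, of 15.1 to 15.8 in WT/TAC and 12.9 to 13.1 in KO/TAC. WT/TAC replicate 1 stood apart before any comparison. Its 7 atrial markers summed to 81132 FPKM, against 6253 and 8940 FPKM in the other WT/TAC libraries and 109 to 2142 FPKM in KO/TAC. Nppa alone gave 55795, 6236 and 5647 FPKM of these sums in WT/TAC replicates 1 to 3. In KO/TAC replicates 1 to 3 it gave 803, 1114 and 79.4 FPKM. The sum of WT/TAC replicate 2 was thus nearly all Nppa. The 3 ventricular markers summed to 269 FPKM in WT/TAC replicate 1, against 16758 to 23120 FPKM in the other 5 libraries. The defining atrial light chain Myl7 was at 8140, 0.23 and 1135 FPKM in WT/TAC replicates 1 to 3 and at 0.25, 333 and 0.66 FPKM in KO/TAC replicates 1 to 3. Atrial transcripts were thus present in 3 libraries, WT/TAC replicates 1 and 3 and KO/TAC replicate 2, and only WT/TAC replicate 1 also had few ventricular ones. Values without WT/TAC replicate 1 stand beside the main ones for part of the genes named, and estimates of others also moved without it. Fibroblast markers were also lower in KO/TAC, with all 6 of 6 past the call rule and sums of 279 to 333 FPKM against 407 to 637 FPKM in WT/TAC, and their part in the ribosomal values was not tested.

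The core genes were among the most abundant transcripts of the heart. Of the 77 core genes, 69 were within the 500 most abundant genes by mean FPKM, and in each library the core genes together held 4.91% to 6.09% of all FPKM. Their sum was 33716, 27726 and 25485 FPKM in WT/TAC replicates 1, 2 and 3 and 27496, 26279 and 29461 FPKM in KO/TAC replicates 1, 2 and 3. The WT/TAC libraries thus held the highest and the lowest sum, and the KO/TAC libraries lay between them. As shares of the library these were 5.40% ± 0.617 in WT/TAC and 5.14% ± 0.217 in KO/TAC (SD, n = 3 each). The groups overlapped, so no difference in the summed level was seen at this spread. In whole tissue, fewer cells with many ribosomes and less ribosomal mRNA per cell cannot be told apart.

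Most core genes moved together between hearts. WT/TAC replicate 1 held the highest value of 60 of the 77 core genes, and WT/TAC replicate 3 held the lowest value of 45. The median deviation of a core gene from its own mean over the 6 hearts was 0.27, -0.02 and -0.17 on the log2 scale in WT/TAC replicates 1 to 3. In KO/TAC it was -0.02, -0.11 and 0.07. The spread between WT/TAC hearts was therefore wider than the distance between the genotypes. The median correlation between pairs of core genes was 0.75 over the 6 libraries, which share depth and tissue makeup within each library. Of the 77, 54 followed the core median with r above 0.8, and 3 ran against it: Rpl36 (-0.49), Rps14 (-0.12) and Rps2 (-0.12).

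**Figure D1:**
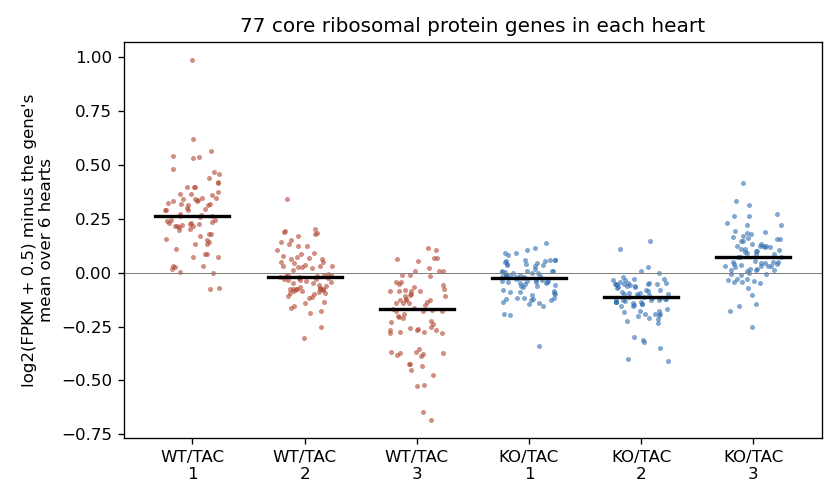
Each point is 1 of 77 core ribosomal protein genes, placed by its log2(FPKM + 0.5) minus its own mean over 6 hearts (vertical axis), in each heart (horizontal axis, WT/TAC in red and KO/TAC in blue). Black bars are medians. WT/TAC replicate 1 lies highest (0.27) and WT/TAC replicate 3 lowest (-0.17), with the 3 KO/TAC hearts between them.

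Every gene that averaged 0.5 FPKM or more was compared between genotypes with limma on log2(FPKM + 0.5), a scale on which the change of low genes is understated. A gene was called where its p before adjustment was below 0.05 and its fitted fold was 1.2 or more. Of the 87 members, 84 were tested, while Rpl32l, Rpl39l and Rps23rg1 lay below the minimum. None of the 84 was called, with 0 higher and 0 lower in KO/TAC, against 11.1% of the 12520 genes tested (4.94% higher and 6.14% lower). On the p before adjustment alone, below 0.05, the count was also 0 of 84, against 11.2% of all genes, and at an adjusted p under 0.05 it was 0 of 84, against 2 genes or 0.0160%. A gene-by-gene 2-sample test on the same log values called 1 member, Rpl13a, against 8.28% of all genes in either direction. The study's own supplementary list of differentially expressed genes includes Rpl13a as lower and Rpl3l as higher in the knockout hearts.

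The absence of calls depended on which WT/TAC hearts were used. Without WT/TAC replicate 1, 2 members were called, Rpl3l and Rps15a, both higher in KO/TAC, against 15.0% of the genes tested. Without WT/TAC replicate 2 the 1 call was Rpl13a, lower in KO/TAC, against 15.8%. Without WT/TAC replicate 3 there were 4 calls against 10.4%, with Rpl3, Rpl39 and Rpl12 lower and Rpl3l higher. Leaving out any KO/TAC heart gave 0 calls. Each of these counts lay below the share called among all genes.

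The median log2 fold change of the core genes was -0.04, against -0.005 over all genes tested. It was below 0 for 55 of 77 core genes (71.4%, against 50.8% of all genes). The medians were -0.05 in the large subunit, -0.06 in the stalk and -0.04 in the small subunit. When WT/TAC replicate 1 was left out the core median was 0.07, against 0.02 over all genes in that fit. In it 57 of 77 core genes lay above 0, against 6695 of all 12430 genes. The sign of the core median thus rested on this library. In the fit of all 6 libraries, the estimates of 72 of 77 core genes lay within 0.25 log2 units of no difference. Their intervals were wider, as described below. Without WT/TAC replicate 1, Rps15a (0.42) and Rpl5 (0.32) were among those outside this limit, while Rpl13a (-0.22) and Rpl12 (-0.13) moved inside it.

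How tightly a difference was bounded varied by gene. The standard error of a core gene had a median of 0.15 and ranged from 0.10 to 0.31. For 76 of the 77 core genes the 95% interval lay within a 2-fold difference in either direction, and for 60 within a 1.5-fold difference. For 0 of 77 it lay within the 1.2-fold limit of the call. The interval of every core gene thus reached past a 1.2-fold difference in at least 1 direction.

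**Figure D2:**
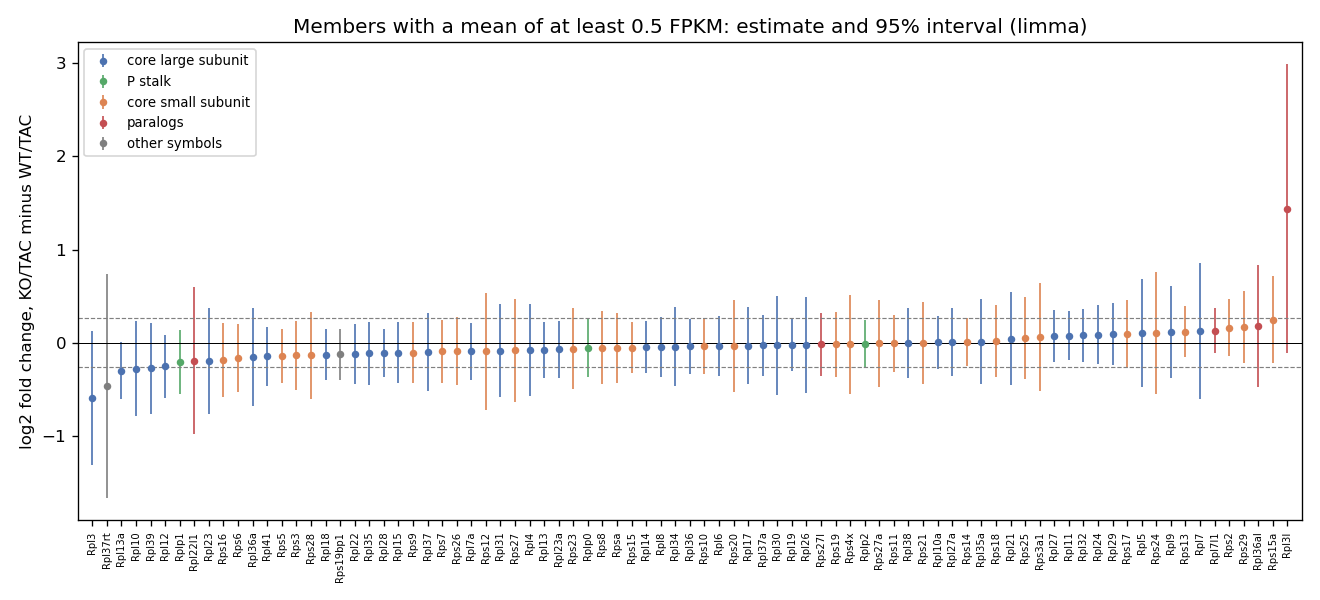
Log2 fold change of KO/TAC against WT/TAC (vertical axis) with its 95% interval from limma for the members tested, except 1 that is not reported here, in order of the estimate (horizontal axis, gene symbols), coloured by class. Dashed lines mark a fold of 1.2. All intervals shown include 0, and Rpl3 (-0.59) and Rpl3l (1.44) lie at the ends.

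In the large subunit, Rpl13a, which is also known as a translational silencer in interferon-treated cells, had the smallest p of any member. It was at 710, 583 and 613 FPKM in WT/TAC replicates 1 to 3 and at 517, 546 and 478 FPKM in KO/TAC replicates 1 to 3. All 3 KO/TAC values lay under all 3 WT/TAC values. The log2 fold change was -0.30 (standard error 0.13, limma adjusted p = 0.449), and Rpl13a lay just outside the call. It was -0.22 without WT/TAC replicate 1, short of the fold limit.

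Rpl12, at the base of the stalk where elongation factors bind, was at 499, 409 and 362 FPKM in WT/TAC and 354, 356 and 345 FPKM in KO/TAC. The KO/TAC values were close together and all lay under the lowest WT/TAC value. Its log2 fold change was -0.25 (standard error 0.14, limma adjusted p = 0.566), and -0.13 without WT/TAC replicate 1. Other members whose groups did not overlap included Rplp1 and Rpl28, lower in KO/TAC, and the paralogs Rpl7l1 and Rpl3l, higher in KO/TAC. In all, the groups did not overlap for 7 of 84 members, or 8.33%, against 18.3% of all genes tested, a smaller share than the background. By direction, 5 lay lower and 2 higher, where the background was 9.79% and 8.46%. Rplp1, an acidic stalk protein, was at 967, 747 and 730 FPKM in WT/TAC and 691, 680 and 730 FPKM in KO/TAC, where the nearest values of the groups almost touch. For Rplp1 the log2 fold change was -0.21, and -0.08 without WT/TAC replicate 1. For Rpl28 it was -0.11, and -0.06 without that heart.

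The stalk scaffold Rplp0 was at 735, 590 and 645 FPKM in WT/TAC and 591, 628 and 664 FPKM in KO/TAC, and its acidic partner Rplp2 at 569, 536 and 525 FPKM in WT/TAC and 544, 520 and 555 FPKM in KO/TAC. Both overlapped between the groups, with log2 fold changes of -0.06 and -0.01, and of 0.02 for each without WT/TAC replicate 1. Rpl39, which lines the peptide tunnel, was at 327, 249 and 187 FPKM in WT/TAC and 197, 198 and 220 FPKM in KO/TAC. WT/TAC replicates 1 and 3 were its highest and lowest hearts, and the log2 fold change was -0.27 (standard error 0.21, limma adjusted p = 0.662). It was -0.07 without WT/TAC replicate 1 and -0.47 without WT/TAC replicate 3, where Rpl39 was called.

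Several core genes were named outside the rule, for known roles or after their values were seen. Rpl5 and Rpl11 bind 5S rRNA and, when free of ribosomes, the p53 regulator Mdm2. Rpl5 was at 425, 317 and 225 FPKM in WT/TAC and 330, 291 and 387 FPKM in KO/TAC, and Rpl11 at 404, 379 and 373 FPKM in WT/TAC and 412, 377 and 432 FPKM in KO/TAC. Both overlapped between genotypes (log2 fold changes 0.10 and 0.08), and WT/TAC hearts ranged more widely for Rpl5 than for Rpl11. Without WT/TAC replicate 1 the log2 fold changes were 0.32 and 0.11, and neither gene was called. Rps19, the gene most often mutated in Diamond-Blackfan anaemia, was at 345, 273 and 256 FPKM in WT/TAC and 289, 264 and 305 FPKM in KO/TAC (-0.02, and 0.11 without WT/TAC replicate 1). It followed the common pattern of a high WT/TAC replicate 1. Rpl36, of the large subunit, ran against that pattern at 247, 283 and 261 FPKM in WT/TAC and 261, 281 and 229 FPKM in KO/TAC. Its lowest heart was KO/TAC replicate 3, in which 11 other core genes had their highest value.

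Rpl3 and Rpl3l showed the widest differences of the family. Rpl3, a core protein that reaches towards the peptidyl transferase centre, was at 406, 233 and 169 FPKM in WT/TAC and 162, 155 and 185 FPKM in KO/TAC. The groups overlapped, with WT/TAC replicate 1 far above the rest. The log2 fold change was -0.59 (standard error 0.30, limma adjusted p = 0.536), and -0.25 without WT/TAC replicate 1. When WT/TAC replicate 3 was left out it was -0.88, and Rpl3 was called.

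Rpl3l, the striated muscle paralog of Rpl3, was at 25.7, 117 and 179 FPKM in WT/TAC and 208, 231 and 228 FPKM in KO/TAC. All KO/TAC values lay above all WT/TAC values, and the WT/TAC values spread widely (107 ± 77.3 against 222 ± 12.7 FPKM, mean ± SD, n = 3 each). The log2 fold change was 1.44 (standard error 0.65, limma adjusted p = 0.481). It was 0.62 without WT/TAC replicate 1 (limma adjusted p = 0.232), where Rpl3l passed the call. It passed as well without WT/TAC replicate 3, at 2.004, and not with log2 Myl7 as a covariate, at 1.13. The lowest value came from the library rich in atrial markers. The 6 cardiomyocyte markers also summed higher in KO/TAC, at 28642 to 29691 FPKM against 24102 to 26971 FPKM in WT/TAC, with 0 of 6 called, and their part in the Rpl3l values was not tested.

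Within each heart, the balance of the pair was given as the share of Rpl3l in the summed FPKM of Rpl3l and Rpl3. It was 5.96%, 33.4% and 51.5% in WT/TAC replicates 1 to 3 and 56.3%, 59.9% and 55.2% in KO/TAC replicates 1 to 3. Every KO/TAC heart had a higher share than every WT/TAC heart, though WT/TAC replicate 3 came close to the lowest KO/TAC heart. The log2 ratio was higher by 2.03 in KO/TAC (exact permutation p = 0.1, 2-sided, the smallest that 3 against 3 allows, adjusted over 4 pairs 0.4). The difference was 0.86 without WT/TAC replicate 1. The coding sequences of Rpl3 and Rpl3l were 74.4% identical over the aligned bases.

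**Figure D3:**
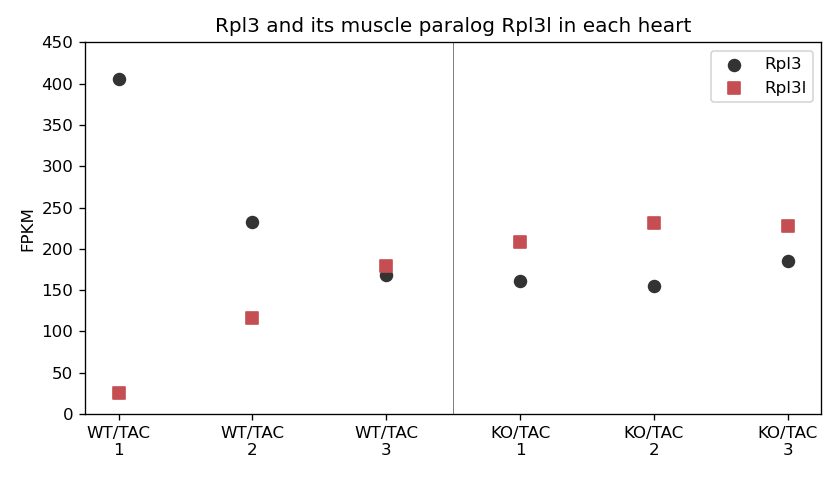
FPKM (vertical axis) of Rpl3 (black circles) and Rpl3l (red squares) in each of 6 hearts (horizontal axis, WT/TAC left of the line and KO/TAC right of it). In WT/TAC replicate 1, Rpl3 was at 406 and Rpl3l at 25.7 FPKM, and in WT/TAC replicate 3 and the 3 KO/TAC hearts Rpl3l lay above Rpl3.

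In the other 3 pairs the ratios of the groups overlapped. For Rpl22l1, which can replace Rpl22, values were 64.3, 32.0 and 26.1 FPKM in WT/TAC and 28.9, 30.5 and 40.4 FPKM in KO/TAC. The groups overlapped, the high value was again WT/TAC replicate 1, and the log2 ratio to Rpl22 differed by -0.07 (exact permutation p = 0.9). Rps27l, a p53-responsive paralog of Rps27, was at 95.9, 76.4 and 73.4 FPKM in WT/TAC and 86.2, 72.9 and 82.2 FPKM in KO/TAC. For this pair the log2 ratio to Rps27 differed by 0.06 (exact permutation p = 0.9). Rpl36al, a retrocopy-derived paralog of Rpl36a, was at 135, 132 and 76.2 FPKM in WT/TAC and 129, 97.3 and 158 FPKM in KO/TAC, and its ratio to Rpl36a differed by 0.34 (exact permutation p = 0.2). Adjusted over the 4 pairs, these p-values were 0.9, 0.9 and 0.4. Rpl7l1, related to Rpl7, was at 22.5, 23.8 and 22.2 FPKM in WT/TAC and 24.4, 24.3 and 26.4 FPKM in KO/TAC. Its groups did not overlap, with a log2 fold change of 0.13 (standard error 0.10, limma adjusted p = 0.674). Rpl39l, known from the testis, stayed at or under 0.27 FPKM in every heart.

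None of the most abundant core genes was called. Rps2, near the mRNA entry of the small subunit, had the highest mean, with 981, 825 and 988 FPKM in WT/TAC and 980, 1086 and 1052 FPKM in KO/TAC. The groups overlapped, and Rps2 did not follow the high level of other core genes in WT/TAC replicate 1. Its log2 fold change was 0.16 (standard error 0.13, limma adjusted p = 0.679). Next came Rpl41, the smallest ribosomal protein, at a mean of 936 FPKM (log2 fold change -0.15, and -0.06 without WT/TAC replicate 1), and Rps15, in the head of the small subunit, at 843 FPKM (-0.06). Rpl23a, near the exit of the peptide tunnel, had a mean of 790 FPKM (-0.07) and Rplp1 of 758 FPKM (-0.21). Both the highest and the lowest of these estimates lay within 1.2-fold.

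Among small subunit genes, Rps15a and Rps29 had the highest estimates. Rps15a was at 29.9, 23.0 and 18.9 FPKM in WT/TAC and 27.9, 24.3 and 32.5 FPKM in KO/TAC. The groups overlapped, and the log2 fold change was 0.25 (standard error 0.20, limma adjusted p = 0.672). It was 0.42 without WT/TAC replicate 1 (limma adjusted p = 0.301), where Rps15a passed the call. Rps29, a small zinc-binding protein, had a log2 fold change of 0.17 (standard error 0.16, limma adjusted p = 0.726), and of 0.30 without WT/TAC replicate 1, where it was not called either.

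Among the core genes, spread over the 6 hearts was widest for Rpl3, Rpl7 and Rps24, with SDs of 0.53, 0.42 and 0.37 on the log2 scale. Rpl7, a large subunit protein, was at 398, 359 and 198 FPKM in WT/TAC and 337, 256 and 424 FPKM in KO/TAC. Rps24, which is mutated in some cases of Diamond-Blackfan anaemia, was at 525, 493 and 274 FPKM in WT/TAC and 443, 371 and 532 FPKM in KO/TAC. In both genes WT/TAC replicate 3 was lowest and KO/TAC replicate 3 highest, and the groups overlapped. The log2 fold changes were 0.12 and 0.10. The summed FPKM of the large subunit with its stalk, divided by that of the small subunit, was 1.46, 1.48 and 1.49 in WT/TAC and 1.41, 1.44 and 1.39 in KO/TAC. All KO/TAC hearts lay under all WT/TAC hearts, and no test was made of this ratio.

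Near-identical copies limit which gene a read came from. Of 85 members whose coding sequence was searched, 74 had at least 1 other transcript with 95% identity over 90% of the sequence, and 516 such copies were found. Only 16 of these had a row in the files, for 10 members. Rps6, the small subunit protein phosphorylated by S6 kinase, was the clearest case. It had the lowest level of all core genes, at 13.4, 13.0 and 9.80 FPKM in WT/TAC and 10.1, 10.2 and 11.6 FPKM in KO/TAC. The copy Rps6-ps4, identical over all 747 coding bases, was at 644, 465 and 421 FPKM in WT/TAC and 476, 477 and 541 FPKM in KO/TAC. The level of Rps6 is therefore uncertain, while its difference between genotypes was small for the gene (-0.16, and -0.08 without WT/TAC replicate 1) and for the sum with the copy (-0.02).

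For Rpl21, at a mean of 96.7 FPKM, the copies BC004004 and Gm10045, each 98.5% identical, were at 153 and 284 FPKM. Rpl31-ps12, whose match to Rpl31 was 99.1% identical over 89.4% of the sequence, was at 247, 176 and 165 FPKM in WT/TAC and 175, 169 and 204 FPKM in KO/TAC. Rpl37rt, 99.7% identical to Rpl37, had a mean of 21.0 FPKM. Absolute levels of these genes cannot be assigned to 1 copy. The lowest core genes after Rps6 were Rps15a, at a mean of 26.1 FPKM, and Rps20, at 44.0 FPKM.

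**Figure D4:**
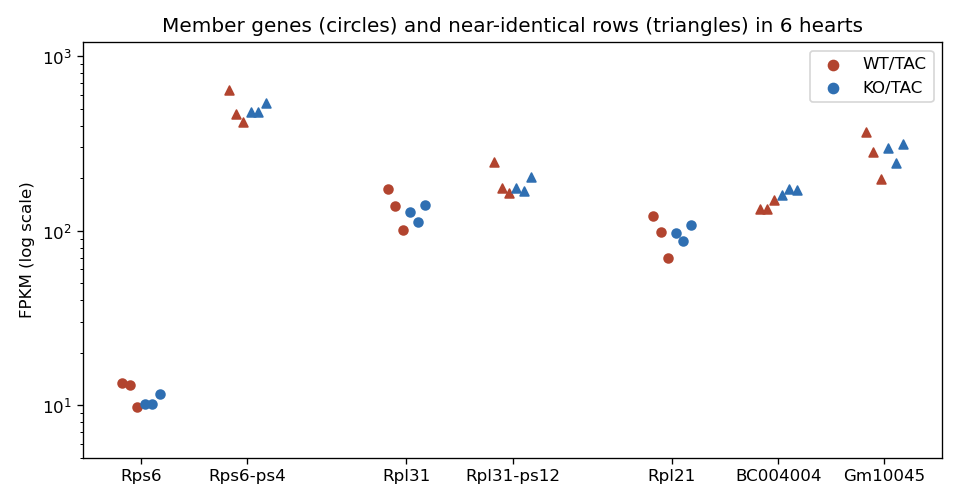
FPKM on a log scale (vertical axis) of Rps6, Rpl31 and Rpl21 (circles) and of the rows with near-identical sequence (triangles), with 6 hearts per gene (red WT/TAC, blue KO/TAC). Rps6-ps4 lies at 421 to 644 FPKM, far above Rps6 at 9.80 to 13.4 FPKM.

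Around the core genes, the ribosomal proteins Fau and Rack1, outside the rule, were not called either. Fau, the precursor of small subunit protein eS30, was at 492, 416 and 435 FPKM in WT/TAC and 371, 384 and 379 FPKM in KO/TAC. Its groups did not overlap, with a log2 fold change of -0.24 (standard error 0.11, limma adjusted p = 0.502), short of the call. Rack1, a scaffold on the small subunit, had a log2 fold change of -0.07.

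The machinery that makes and feeds ribosomes was called in few genes. In the list of ribosome biogenesis factors, 2 of 59 tested rose and 0 fell, against 4.94% of all genes higher and 6.14% lower. They were Nop56, a box C/D snoRNP protein, from 14.3 ± 1.84 to 18.3 ± 1.33 FPKM (log2 fold change 0.35), and Emg1, an 18S rRNA methyltransferase, from 37.1 ± 1.97 to 45.9 ± 4.07 FPKM (0.30). Of 39 initiation factors, 1 rose, the helicase Eif4a2, from 110 ± 15.4 to 162 ± 33.9 FPKM (0.55). Both groups of hearts stayed apart for these 3 genes, with limma adjusted p-values of 0.371 to 0.403. With WT/TAC replicate 1 left out, 2 biogenesis factors were called higher and 2 lower, and 1 initiation factor was called in each direction, against 7.55% of all genes higher and 7.49% lower in that fit. Nop56 was then at 0.27 and no longer called. With log2 Myl7 as a covariate none of the 3 was called.

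In the mTORC1 list, 2 of 20 fell and 0 rose, against 6.14% of all genes lower. Ddit4, an inhibitor of mTORC1, was at 40.5, 52.7 and 45.4 FPKM in WT/TAC and 22.01, 18.5 and 35.8 FPKM in KO/TAC. The log2 fold change was -0.90 (standard error 0.25, limma adjusted p = 0.291). Myc, a transcription factor that drives ribosome production, was at 1.55, 4.89 and 5.71 FPKM in WT/TAC and 1.58, 1.11 and 1.13 FPKM in KO/TAC. The log2 fold change was -1.22 (standard error 0.42, limma adjusted p = 0.371). Ddit4 separated the groups, and Myc overlapped through WT/TAC replicate 1. Without that library 4 of the 20 fell, against 7.49% of all genes. Myc was then at -1.72 (limma adjusted p = 0.04996), 1 of 14 genes with an adjusted p under 0.05 in that fit. With all 6 libraries, none was called among 9 elongation factors, 24 subunits and factors of RNA polymerases I and III, 17 chaperone and surveillance genes and 16 other TOP mRNAs. With WT/TAC replicate 1 left out, 1 polymerase gene was called higher and 1 lower, 1 chaperone or surveillance gene lower and 1 other TOP mRNA higher.

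Among the other TOP mRNAs, the elongation factor Eef1a1 had its own outlying heart. It was at 2160, 652 and 717 FPKM in WT/TAC and 658, 639 and 593 FPKM in KO/TAC. WT/TAC replicate 1 was far above the others, as for Rpl3. Its muscle counterpart Eef1a2, named after its values were seen, had means of 700 ± 241 FPKM in WT/TAC and 803 ± 47.0 FPKM in KO/TAC and was not called.

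The genes of the mitochondrial ribosome were called in 1 direction. Of 78 tested, 16 rose and 0 fell in KO/TAC, against 4.94% of all genes higher, with a median log2 fold change of 0.24. Mrpl45 was at 28.8, 38.0 and 36.8 FPKM in WT/TAC and 51.2, 50.8 and 51.1 FPKM in KO/TAC. It rose by 0.57 on the log2 scale (standard error 0.13, limma adjusted p = 0.263). Mrpl39 (0.38), Mrpl22 (0.49) and Mrps31 (0.42) also rose, and no group of hearts overlapped for these 4. When WT/TAC replicate 1 was left out, 14 rose and the median was 0.16. Leaving out WT/TAC replicate 2 gave 28, KO/TAC replicate 1 gave 7 and KO/TAC replicate 3 gave 3, with 0 lower each time. With log2 Myl7 as a covariate 9 rose and 0 fell. In the fits without KO/TAC replicates 1 and 3, 7.67% and 4.99% of all genes were called in either direction. Called higher in those fits were 365 of 12496 and 260 of 12552 genes. The number called higher was 939 of 12430 without WT/TAC replicate 1 and 792 of 12523 without WT/TAC replicate 2. With log2 Myl7 as a covariate it was 531 of 12520. The difference between the cytosolic and mitochondrial lists was not tested.

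**Figure D5:**
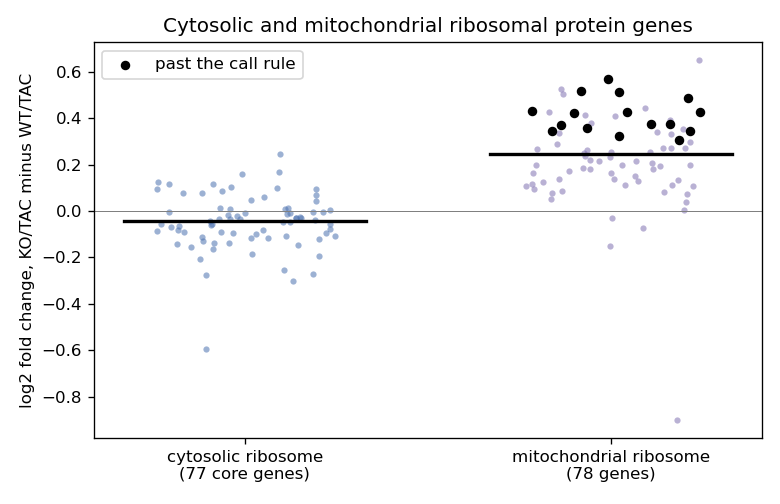
Log2 fold change of KO/TAC against WT/TAC (vertical axis) for the 77 core genes of the cytosolic ribosome and the 78 genes of the mitochondrial ribosome, 1 point per gene. Bars are medians (-0.04 and 0.24), and black points are the 16 genes past the call rule, all in the mitochondrial list.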

How the data were processed

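Hearts of 3 WT/TAC and 3 KO/TAC mice were sequenced in separate libraries with a KAPA stranded kit. The authors deposited FPKM, to 2 decimals, in a file per heart for 17570 Entrez Gene IDs, of which 17441 matched a RefSeq symbol. The submitters' processing notes name HISAT2 2.0.5 and StringTie 1.3.3. These notes list the builds hg38, a human one, and mm9 with no role, so the build of the files was not taken from them. How reads with several matches were assigned is not given in the sources used here. FPKM are not counts, so no count test or counting interval was made.

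The values were tested with limma 3.58.1 in R 4.3.3 (lmFit and eBayes with a trend) on log2(FPKM + 0.5) for genes averaging 0.5 FPKM or more, 2-sided, with Benjamini-Hochberg adjustment over the 12520 genes tested. The code was tested on simulated data. Paralog ratios were compared by an exact permutation test in scipy 1.17.1. Other tools were Python 3.11.15, numpy 2.4.6, pandas 2.3.3, matplotlib 3.10.9 and blastn 2.17.0. Promoter windows, microRNA and names came from RefSeq (GRCm38.p6), and coding sequences and 3′ UTRs from GENCODE M21. All 67 members with a start-site entry were searched.

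The estimate of depth fitted whole fragments to values of 0.03 to 0.4 FPKM, of which 55.8% to 66.0% lay within 0.2 of a step, against 40% by chance.

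The members and gene lists were chosen with earlier results of these data known. Genes named were the 3 core genes with the smallest p in each direction, the 5 with the highest and 3 with the lowest mean, the 3 with the largest SD, and every tested paralog with its partner. In other lists they were up to 4 called genes, or else the 2 with the smallest p. Others were named after their values were seen. The alternatives run were other pseudocounts (0.1 and 1), no low-value filter, a 5 FPKM minimum, median ratio and quantile scaling, no trend, robust eBayes, 2-sample tests, the replicate block and each library left out. Scaling to the core genes, log2 Myl7 as a covariate and sums with near-identical rows were chosen after seeing the data. Some genes are not reported here by name, though they are included in the counts.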

Additional observations from a re-analysis of the deposited data

How the results depend on the processing

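The count of members called higher was 1 (Rpl3l) with the replicate number as a block. In that fit 7.02% of all genes were called in either direction. The count called higher was 0 to 2 with a library left out. The count called lower was 1 (Rpl13a) with a minimum mean of 5 FPKM, quantile normalization and robust eBayes. It was also 1 (Rpl13a) with the 2-sample tests on log and raw values. In these fits 8.16% to 12.3% of all genes were called in either direction. After scaling to the core genes the count called lower was 1 (Rpl3), where 8.75% of all genes were called in either direction. With a library left out it was 0 to 3. The count at an adjusted p under 0.05 was 0 in every alternative run. The core median ranged from -0.14 to 0.071 with a library left out. The cause of these moves was not tested. Same-numbered deviations correlated at -0.29, -0.57 and -0.35, so the numbers were not used as pairs in the main fit. Tissue makeup also differed between hearts, so these values cannot show whether same-numbered hearts were handled together. The block changed the count of all genes called from 1387 to 879, and of those called higher from 618 to 355. It changed the count of mitochondrial ribosomal genes called higher from 16 to 4.

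Among the members picked by the naming rule, some estimates near 0 changed sign. With log2 Myl7 as a covariate these were Rps20 (0.013), Rpl7 (-0.020), Rps24 (-0.023) and Rps27 (0.070), and after scaling to the core genes Rps20 (0.013) and Rps27l (0.030). Other core genes also changed sign with log2 Myl7 as a covariate, among them Rplp0 (0.0085), Rps19 (0.0027) and Rpl27a (-0.022). In that fit 49 of the 77 core genes lay below 0, against 55 in the main fit. With a library left out, the log2 fold change ranged from -0.092 to 0.0031 for Rps15, -0.13 to 0.015 for Rpl23a, -0.22 to 0.19 for Rps20, -0.19 to 0.32 for Rpl7, -0.20 to 0.27 for Rps24, -0.46 to 0.18 for Rpl22l1, -0.093 to 0.099 for Rps27l, -0.26 to 0.18 for Rps27, -0.090 to 0.36 for Rpl36al and -0.33 to 0.071 for Rpl36a. The log2 ratio of Rpl22l1 to Rpl22 ranged from -0.25 to 0.25, and that of Rps27l to Rps27 from -0.080 to 0.19. The genes called among all tested numbered 626 (without KO/TAC replicate 3) to 1973 (without WT/TAC replicate 2).

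With 3 hearts a group, 1 WT/TAC heart with few ventricular transcripts and atrial transcripts in 3 of the 6 hearts, differences under 1.5-fold are poorly bounded. FPKM carries no counts, so counting error is unknown, and near-identical copies limit the levels of single genes.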
